A study of Mus musculus with 8 samples.

Results

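The genes described here carry out DNA replication and the G1/S transition of the cell cycle: 33 mouse genes for origin licensing, origin firing, the replication fork, nucleotide synthesis and entry into S phase. They were listed by name and role, and the probes of the array were assigned to them by RefSeq accession. Of the 33 genes, 32 were measured, by 40 probes, among 31013 genes tested. Of these 31013, 17101 carried a gene symbol, and the rest were counted as genes under the name that the array gave their probe. No probe was assigned to Gins1, a subunit of the GINS complex, and no value is given for it.

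The arrays measured RNA of whole kidneys of mouse embryos at E13.5, of a mixed CD1 and C57BL/6 strain. One group was labelled UB HDAC1,2-/-, a loss of 2 histone deacetylases in the ureteric bud (UB), the branching epithelium from which the collecting ducts form, and the other was labelled wild type. The Cre driver of the deletion is not given in the sources used here. Each group had 4 biological replicates, and 1 mutant and 1 wild type RNA were hybridised together on 2 arrays with the dyes Cy3 and Cy5 exchanged, which gives 8 arrays. The labels do not say how many embryos a replicate held. The label of each array names a dye swap for all 4 replicates, whereas the design text of the series speaks of swaps for 2 of 4, and the labels were followed. If they are wrong for some arrays, the averages and signs below would change.

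A dividing cell licenses its origins in G1, when the origin recognition complex, with Cdc6 and Cdt1, loads the Mcm2 to Mcm7 helicase onto DNA. At the start of S phase the kinases Cdc7 and cyclin E-Cdk2 turn the loaded helicase, with Cdc45 and GINS, into an active fork, where polymerase alpha with primase starts each strand, and Pcna, its loader Rfc, and Rpa, Fen1 and Lig1 carry synthesis through. Most of these genes are transcribed in waves under E2F factors, so that their RNA is widely used as a sign of cycling cells. The kidney at this age grows fast, and the bud tips, the nephron progenitors around them and the stroma all hold dividing cells. The design asks whether these genes made up more or less of whole-kidney RNA when the bud lacked both deacetylases. The labels give 0.5 µg of total RNA for each array, and the signals were dye-normalized. A ratio therefore compares shares of RNA and not the amount that a kidney held. A change in the bud alone would be mixed with the RNA of all other cells.

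To show what these genes share in sequence, the 250 bases upstream of each start in the RefSeq promoters of GRCm38.p6 were searched on both strands for 4 forms of the E2F binding word, TTTCCCGC, TTTGGCGC, TTTCGCGC and TTTGCCGC. Of the 33 genes, 27 matched a promoter, 32 promoters in all. An E2F word was found in 7 of the 32 promoters (21.9%), 1 for each of 7 genes, against 611 of 32851 promoters in the table (1.86%). The word CCAAT, the site of the factor NF-Y, was found in 17 of the 32 promoters (53.1%) and in 33.9% of all promoters. The 7 promoters with an E2F word are shown as windows of 80 bases upstream of the start, 5′ to 3′ on the strand of the gene, with the word on either strand in capitals.
Cdc6 chr11:98907977-98908056 (+ strand): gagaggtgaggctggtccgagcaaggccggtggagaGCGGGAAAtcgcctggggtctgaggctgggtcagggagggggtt
Mcm5 chr8:75109322-75109401 (+ strand): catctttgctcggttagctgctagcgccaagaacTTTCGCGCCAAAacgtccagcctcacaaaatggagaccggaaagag
Mcm6 chr1:128359741-128359820 (- strand): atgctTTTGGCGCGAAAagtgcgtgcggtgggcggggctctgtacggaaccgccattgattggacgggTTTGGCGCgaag
Mcm7 chr5:138172005-138172084 (- strand): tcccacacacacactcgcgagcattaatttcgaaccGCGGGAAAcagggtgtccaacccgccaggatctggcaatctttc
Orc1 chr4:108579374-108579453 (+ strand): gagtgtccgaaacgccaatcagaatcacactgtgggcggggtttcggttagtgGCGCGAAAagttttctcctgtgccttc
Pola1 chrX:93632250-93632329 (- strand): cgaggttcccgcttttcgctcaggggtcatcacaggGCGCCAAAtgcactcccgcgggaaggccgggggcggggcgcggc
Rfc3 chr5:151651209-151651288 (- strand): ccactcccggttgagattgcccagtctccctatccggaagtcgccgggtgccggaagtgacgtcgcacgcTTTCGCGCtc
The word in Pola1 and 1 of the words in Mcm5 and Mcm6 is TTTGGCGC, which reads GCGCCAAA where it lies on the other strand. In Mcm5 and in the first run of capitals of Mcm6 it overlaps a TTTCGCGC word on the opposite strand, and Mcm6 holds another TTTGGCGC nearer to its start. Orc1 and Rfc3 hold TTTCGCGC within 27 and 10 bases of the start, and Cdc6 and Mcm7 hold TTTCCCGC, printed as GCGGGAAA. TTTGCCGC was found in none of the 32 promoters and in 111 promoters of the table. A match describes these letters, and binding by E2F factors was not measured.

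The values below are log2 ratios with the labelled mutant as numerator and the labelled wild type as denominator, from the scanner's dye-normalized signals, with both dye orientations of a replicate averaged, so that n is 4 replicates. The direction rests on the dye labels of the arrays, and the authors' deposited table of 496 selected entries, none of which names any of the 33 genes, has the opposite sign in all 266 entries that could be set against 1 spot. The signs here are therefore those of the labels, and each would turn if the authors' table holds the true direction. Hdac2, a targeted gene, of which a kidney without it in the bud still holds the RNA of all other cells, had log2 ratios of 0.60, 0.60, 0.74 and −0.61 in replicates 1 to 4, a mean of 0.33 ± 0.63 (SD, n = 4), with an unadjusted p of 0.220 and an adjusted p of 0.760 in limma. It was above 0 in 3 replicates and below 0 in replicate 4, so it does not settle the direction. Whether its probe lies in the deleted part is not given in the sources used here, and Hdac1 is not analysed here.

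On each array, 79.2% to 97.1% of the spots of labelled wild type RNA and 82.1% to 95.9% of those of labelled mutant RNA exceeded background clearly, and both low ends were on 1 array of replicate 2. Over all genes, the ratios of different replicates correlated between −0.185 (replicates 1 and 2) and 0.446 (replicates 3 and 4), and the 2 arrays of a replicate between 0.224 and 0.609. The kidney markers Pax2, Pax8, Wt1, Six2, Foxd1, Ret, Gata3 and Eya1 were well above background in both RNAs on all 8 arrays. All 32 genes described here were too, and no spot of theirs was saturated.

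The replication genes as a group differed little between the 2 RNAs, and none of the 32 passed the test. Mean log2 ratios ran from −0.09 (Prim2) to 0.43 (Cdc45), so that every mean was under 1.4-fold, and 29 of the 32 were under 1.2-fold. None had an adjusted p under 0.05 in limma with Benjamini-Hochberg adjustment over all genes, and their adjusted p ran from 0.760 to 0.986. Of all 31013 genes, 3 passed (0.00967%), none of them in the group. At an unadjusted p under 0.05 there was 1 member, Pola1, of 32, higher in the RNA labelled mutant, beside 3.16% of all genes in that direction, 2.6% in the other and 5.76% in either, where 1551 genes would be 1 in 20 of those tested. A fit of all 8 arrays with the replicate as a random block passed 106 genes, again with none of the 32. It put 3 of the 32 at an unadjusted p under 0.05, Cdc45, Pola1 and Ccne2, beside 2308 of all genes. In the fit of replicate means, centring each array on its median moved the higher share of the unadjusted calls over all genes from 54.9% to 42.3%. The split over all genes thus depends on the centring. In a whole organ, fewer cells of a type and less RNA per cell cannot be told apart, and the p-values measure the spread over the 4 replicates.

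The small differences leaned to 1 side. The mean was above 0 in 27 of the 32 genes (84.4%) with a median of 0.10, and in 53.3% of all genes with a median of 0.02. With each array centred on its median, the median of the 32 was 0.06 and 24 were above 0. Another scaling, normexp background correction with loess, left 26 above 0 with a median of 0.07, but turned the sign of 9 genes, Mcm2, Mcm4, Mcm5, Orc1, Cdt1, Gins2, Lig1, Fen1 and Tk1, for which no direction is given. All 4 replicates were above 0 in 5 of the 32, Orc1, Pola1, Rrm1, Rrm2 and Tyms, beside 10.3% of all genes. All 4 were below 0 in 1, Prim2, beside 5.19% of all genes. The size of the mean exceeded the SD of its replicates in 9 genes and was under it in 23. The 95% confidence interval of limma lay within 1.4-fold either way, which is within 0.49 on the log2 scale, for 28 of the 32 genes, the exceptions being Cdc45, Ccne2, Pola1 and Rfc5. For those 28 genes a 1.4-fold change in their share of whole-kidney RNA lay outside the interval, as measured by the brightest probe alone. The authors chose the entries of their table at that size. Other probes were given no interval, and some differed. Among the 28, Cdc7 had other probes at −0.42 ± 1.20 and −0.19 ± 0.45, and Ccne1 another at 0.34 ± 0.21 (mean ± SD).

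**Figure D1:**
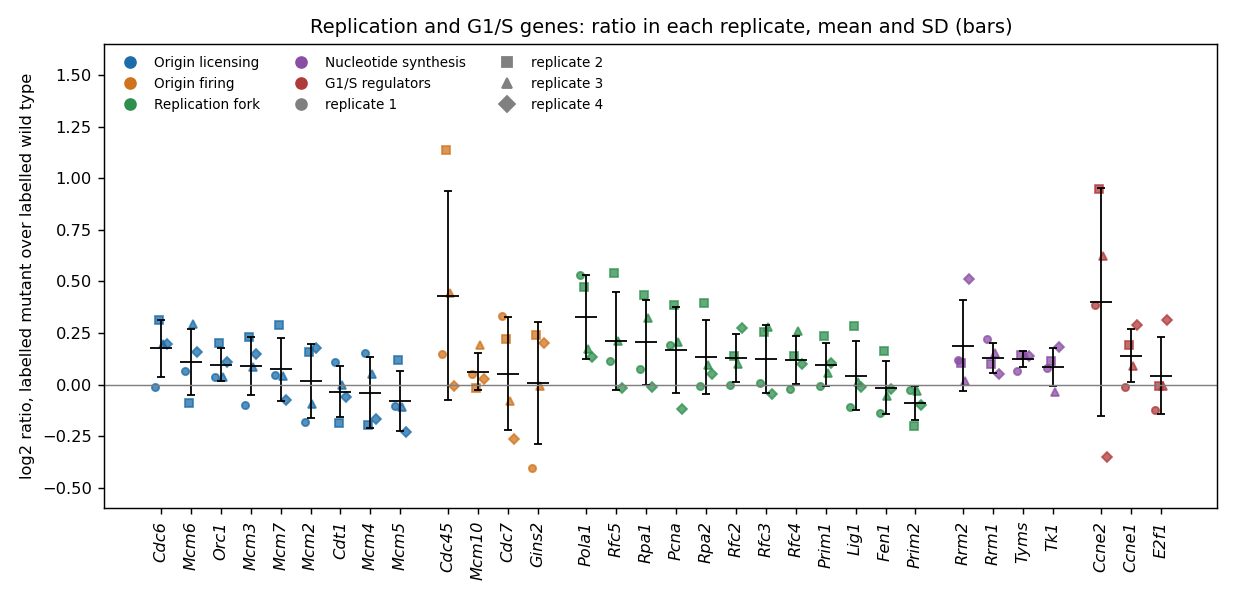
Log2 ratio of labelled mutant over labelled wild type RNA (vertical axis) for the 32 measured genes, grouped and coloured by role; each symbol is 1 replicate, horizontal bars are means and vertical bars SDs over the 4 replicates. The means run from −0.09 (Prim2) to 0.43 (Cdc45), and the widest spreads are those of Cdc45 and Ccne2.

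Origin licensing genes were close to equal in both RNAs: 6 of 9 means were above 0, the median was 0.07, and none passed the test. Cdc6, the loader that brings the helicase to the origin and the highest of the 9, had ratios of −0.01, 0.31, 0.20 and 0.20 in replicates 1 to 4. That is a mean of 0.17 ± 0.14 (SD, n = 4) with a 95% interval of −0.06 to 0.41 and an unadjusted p of 0.122 in limma, and 3 of the 4 replicates were above 0. Its exact sign-flip permutation p was 0.250, where 0.125 is the smallest that 4 replicates allow. Another Cdc6 probe gave 0.22 ± 0.18. Mcm5, a helicase subunit and the lowest of the 9, had ratios of −0.10, 0.12, −0.11 and −0.23, a mean of −0.08 ± 0.14 (SD, n = 4) with an interval of −0.32 to 0.16. Replicate 2 alone lay above 0, in limma its unadjusted p was 0.446, and with normexp and loess its mean was 0.03.

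The other helicase subunits lay on both sides of 0. Their means were 0.01 ± 0.18 for Mcm2, 0.09 ± 0.14 for Mcm3, −0.04 ± 0.17 for Mcm4, 0.11 ± 0.16 for Mcm6 and 0.07 ± 0.15 for Mcm7, each over 4 replicates. Mcm4 and Mcm6 were below 0 in replicate 2 (−0.20 and −0.09), where Mcm2, Mcm3, Mcm5 and Mcm7 were between 0.12 and 0.29. Orc1, the largest subunit of the origin recognition complex, had 0.04, 0.20, 0.04 and 0.11, a small ratio above 0 in all 4 replicates (mean 0.10 ± 0.08) that became −0.05 with normexp and loess. Cdt1, which loads the helicase together with Cdc6, had a mean of −0.03 ± 0.12. The processed signal of Mcm5 ran from 11990 to 34488 with a median of 24206 in the RNA labelled mutant and from 12313 to 41466 with a median of 25883 in the RNA labelled wild type, and that of Orc1 ran from 696 to 1215 with a median of 917 in the RNA labelled mutant and from 535 to 1074 with a median of 893 in the RNA labelled wild type.

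Among the origin firing genes, all 4 measured means were above 0 with a median of 0.06, and the gene with the largest mean of all 32 was here. Cdc45, which joins the helicase to start the fork, had ratios of 0.15, 1.14, 0.44 and 0.00, a mean of 0.43 ± 0.51 (SD, n = 4). Replicate 2 was the highest and replicate 4 was near 0, so the replicates ran from no difference to the highest ratio of any of the 32 genes. The interval was −0.06 to 0.92, the limma p 0.0748 and the exact permutation p 0.250, and without replicate 2 the mean was 0.20. Gins2, a GINS subunit and the lowest of the 4, had −0.41, 0.24, −0.01 and 0.20, a mean of 0.01 ± 0.30 (SD, n = 4) with an interval of −0.33 to 0.34, its replicates lay on both sides of 0, and with normexp and loess its mean was −0.12. Mcm10, which helps to start the helicase, had a mean of 0.06 ± 0.09.

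Cdc7, the kinase that acts on the loaded helicase, gave different values from its 3 probes, a point chosen after the values were seen. The brightest probe had 0.33, 0.22, −0.08 and −0.26, a mean of 0.05 ± 0.27. Another had 0.60, −2.16, −0.11 and −0.02, a mean of −0.42 ± 1.20, and its 2 arrays of replicate 2 were at −2.23 and −2.09. The remaining probe had 0.14, −0.85, 0.00 and −0.05, a mean of −0.19 ± 0.45. In replicate 2, then, the mean of the brightest probe was above 0 and the other 2 were below it, and no direction is given for Cdc7.

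At the replication fork, 10 of 12 means were above 0 with a median of 0.13. Pola1, the catalytic subunit of the polymerase that starts each new strand, had ratios of 0.53, 0.47, 0.17 and 0.13 in replicates 1 to 4. All 4 were above 0, and replicates 1 and 2, which shared slide 1, were the higher ones. Within slide 1 the mean was 0.50, and within slide 2, which held replicates 3 and 4, it was 0.15. The part of the slide was not tested. Over all replicates Pola1 had a mean of 0.33 ± 0.20 (SD, n = 4), 1.25-fold, with an interval of 0.05 to 0.60. Its unadjusted p in limma was 0.0265, the lowest of the 32 genes, but the adjusted p was 0.760. Its exact permutation p of 0.125 is the smallest possible with 4 replicates. Its signal ran from 3265 to 6056 with a median of 5035 in the RNA labelled mutant and from 2397 to 5282 with a median of 3745 in the RNA labelled wild type. The unadjusted p was not under 0.05 without replicate 1, without replicate 3, or on the arrays with labelled mutant in Cy5 alone. Its promoter is among those shown above with an E2F word.

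Prim2, a primase subunit that works in 1 complex with Pola1, was the lowest of the 12, with −0.03, −0.20, −0.03 and −0.10, a mean of −0.09 ± 0.08 (SD, n = 4) and an interval of −0.31 to 0.13. The catalytic primase subunit Prim1 had a mean of 0.10 ± 0.10. Pola1 and Prim2 had the highest and the lowest mean of the 12 fork genes, and the difference between these subunits was not tested.

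The clamp and its loader were slightly above 0. Pcna, the clamp, which 10 spots on each array measured, had 0.19, 0.39, 0.21 and −0.12, a mean of 0.17 ± 0.21, and replicate 4 was below 0. The small loader subunits had means of 0.13 ± 0.12 for Rfc2 (0.06 ± 0.25 by another probe), 0.12 ± 0.17 for Rfc3, 0.12 ± 0.12 for Rfc4 and 0.21 ± 0.24 for Rfc5. Rfc5 was highest in replicate 2 at 0.54. Without replicate 2 the means were 0.09 for Pcna, 0.08 for Rfc3 and 0.10 for Rfc5, and without replicate 4 that of Pcna was 0.26. The single-strand binding subunits had 0.20 ± 0.21 for Rpa1 and 0.13 ± 0.18 for Rpa2, or 0.13 and 0.05 without replicate 2. The ligase Lig1, which seals the fragments of the lagging strand, was at 0.04 ± 0.17, and the flap nuclease Fen1 at −0.01 ± 0.13.

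The nucleotide synthesis genes had all 4 means above 0, with a median of 0.13, and 3 of the 4 were above 0 in every replicate. Rrm2, the S-phase subunit of ribonucleotide reductase and the highest of the 4, had 0.12, 0.11, 0.02 and 0.51, a mean of 0.19 ± 0.22 (SD, n = 4) with an interval of −0.09 to 0.47 and a limma p of 0.154. Replicate 4 stood above the other 3, and without it the mean was 0.08. Rrm1, its partner subunit, had 0.22, 0.10, 0.15 and 0.05, a mean of 0.13 ± 0.07. Tyms, which makes thymidylate, had 0.06, 0.14, 0.14 and 0.14, a mean of 0.12 ± 0.04, the narrowest spread of the 32 genes; its other probe gave 0.14 ± 0.18. Tk1, the thymidine salvage kinase and the lowest of the 4, had 0.08, 0.12, −0.04 and 0.18, a mean of 0.08 ± 0.09 (SD, n = 4) with an interval of −0.14 to 0.31, which became −0.04 with normexp and loess.

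Of the G1/S regulators, Ccne2 and Ccne1 encode the E-type cyclins and E2f1 a factor that drives the genes of S phase. All 3 means were above 0 with a median of 0.14. Ccne2 had 0.38, 0.95, 0.62 and −0.35, a mean of 0.40 ± 0.55 (SD, n = 4) with an interval of −0.13 to 0.93, a limma p of 0.112 and the widest spread of the 32 genes. Replicates 1 to 3 were all above 0 and replicate 4 was below 0; the mean was 0.22 without replicate 2 and 0.65 without replicate 4. Its other probe gave 0.29 ± 0.53. Ccne1 had a mean of 0.14 ± 0.13 and 0.34 ± 0.21 by another probe. E2f1, the lowest of the 3, had −0.12, −0.01, −0.01 and 0.31, a mean of 0.04 ± 0.19 (SD, n = 4) with an interval of −0.22 to 0.31, and replicate 4 alone stood clearly above 0. A probe of E2f1 spotted 10 times per array gave 0.03 ± 0.32.

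The lean to values above 0 was not the same in every replicate. The median of the 32 ratios was 0.04 in replicate 1, 0.20 in replicate 2, 0.09 in replicate 3 and 0.05 in replicate 4. In replicates 1 to 4, 18, 26, 23 and 18 of the 32 genes were above 0. Of all 31013 genes, 15463, 16349, 16883 and 18988 were. The medians of all genes were 0.00, 0.08, 0.02 and 0.05 in the same order, so that replicate 4 showed no offset of these genes from the rest. Replicate 2 gave the highest ratio in 15 of the 32 genes, and replicates 1 and 4 the lowest in 13 and 11. Replicate 2 also held the array with the fewest spots above background, and the part of that array in these ratios was not tested.

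**Figure D2:**
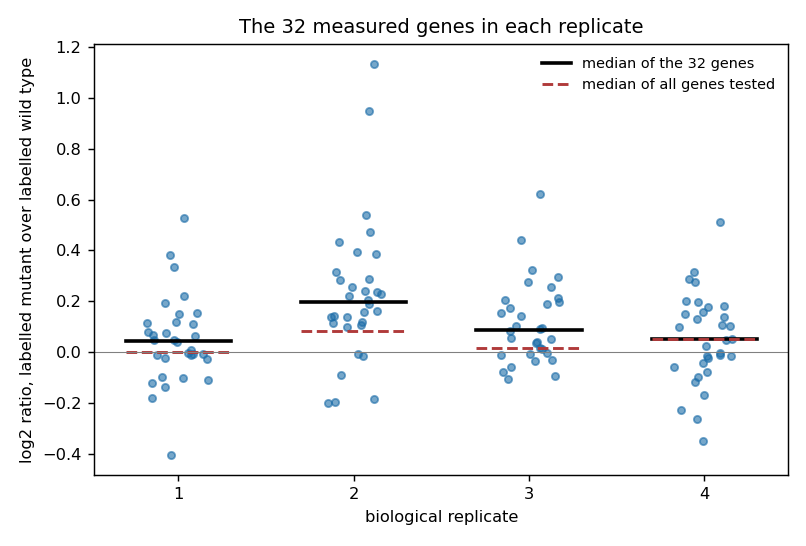
Log2 ratio of labelled mutant over labelled wild type RNA (vertical axis) of the 32 genes (points) in biological replicates 1 to 4 (horizontal axis), with the median of the 32 genes (solid line) and of all genes tested (dashed line). The median of the 32 genes is highest in replicate 2, at 0.20, and coincides with that of all genes in replicate 4.

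The 2 dye orientations differed for many of these genes, and for 12 of the 32 the dye part of the difference, taken as the distance of either orientation from their mean, was larger than the mean. With the labelled mutant RNA in Cy5 the array medians of the 32 genes were −0.06, 0.26, 0.09 and 0.01 in replicates 1 to 4, and with it in Cy3 they were 0.09, 0.18, 0.15 and 0.11. The medians of all genes were 0.03, 0.09, 0.04 and 0.08 on the Cy5 arrays and −0.03, 0.07, 0.00 and 0.03 on the Cy3 arrays. The 32 genes thus lay below all genes on the Cy5 arrays of replicates 1 and 4 and above them on the other 6 arrays. The ratio was higher with the labelled mutant in Cy3 for 22 genes and in Cy5 for 10. Of the 128 pairs of arrays, 1 pair for each gene and replicate, 68 (53.1%) had the same sign in both orientations. No gene was above 0 on all 8 arrays, and Ccne2 was the single gene whose 2 arrays had 1 sign in each of the 4 replicates.

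Some helicase and fork genes had opposite signs in the 2 orientations. The orientation means were −0.12 in Cy5 and 0.34 in Cy3 for Mcm6, −0.20 and 0.32 for Mcm10, and −0.05 and 0.30 for Rfc2. Pcna went the other way, with 0.31 in Cy5 and 0.02 in Cy3. For the genes with the largest means the orientations lay closer, 0.39 and 0.47 for Cdc45 and 0.37 and 0.43 for Ccne2, while Pola1 had 0.18 and 0.48. Averaging both orientations removes a constant dye effect, and the SD over replicates above is that of these averages.

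**Figure D3:**
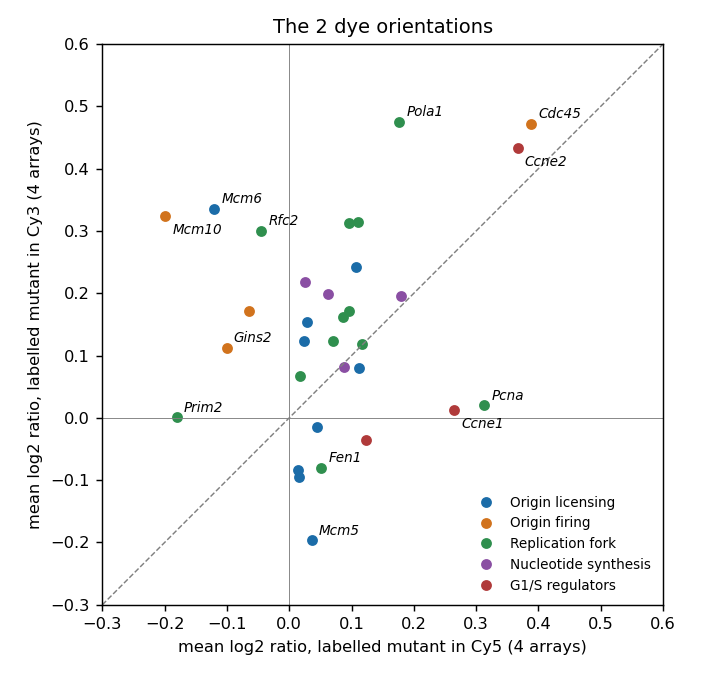
Mean log2 ratio over the 4 arrays with the labelled mutant RNA in Cy5 (horizontal axis) and over the 4 with it in Cy3 (vertical axis), 1 point per gene, coloured by role, with the line of equal values dashed. Cdc45 and Ccne2 lie near the line, and Mcm6, Mcm10 and Rfc2 are below 0 in Cy5 and between 0.30 and 0.34 in Cy3.

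Ratios of other genes of the same processes were of like size. Of 64 other replication and G1/S genes, among them the remaining polymerase, Orc and Gins subunits and checkpoint genes, 63 were tested, 51 (81.0%) had a mean above 0, and the median was 0.13. None passed the adjusted test and 2 had an unadjusted p under 0.05, both above 0, where 3.16% of all genes did. Dna2, a nuclease and helicase that trims flaps, had 0.49, 0.48, 0.24 and 0.11, a mean of 0.33 ± 0.19 with a limma p of 0.0218. Pole4, a small subunit of polymerase epsilon, had 0.18, 0.38, 0.35 and 0.17, a mean of 0.27 ± 0.11 with a limma p of 0.0275. Of 30 mitosis genes, which mark later phases of the cycle, 23 (76.7%) had a mean above 0 with a median of 0.09, and Nuf2, a kinetochore protein, was the only one at an unadjusted p under 0.05. It had 0.24, 0.95, 0.32 and 0.15, a mean of 0.41 ± 0.36 with a limma p of 0.0375, and 0.23 without replicate 2. The 7 mitosis genes with a mean below 0 included Bub1 (−0.29 ± 0.60), Top2a (−0.24, below 0 in all 4 replicates) and Mki67 (−0.04). Bub1 had 0.05, −1.16, −0.21 and 0.15 in replicates 1 to 4, so that replicate 2 stood far below the others. Neither list was tested against the 32 genes.

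**Figure D4:**
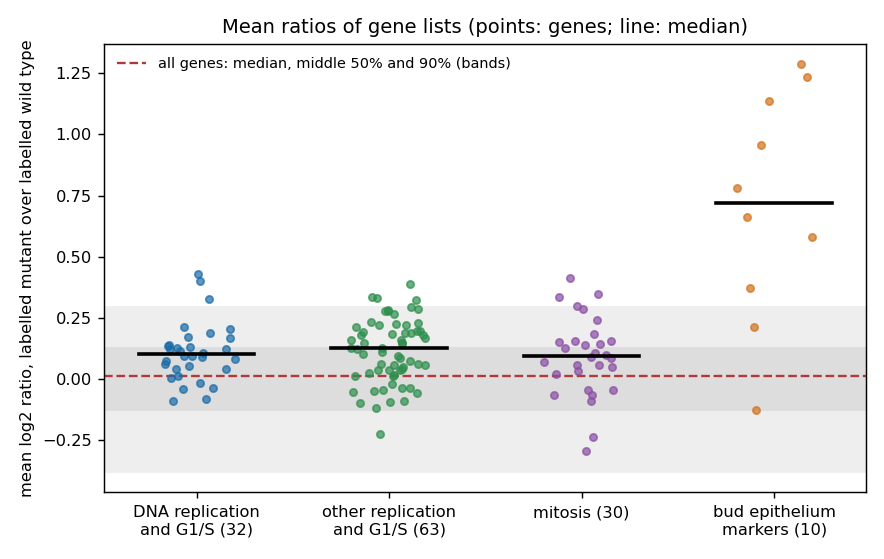
Mean log2 ratio of labelled mutant over labelled wild type RNA (vertical axis) for the genes (points) of 4 lists, with each list's median as a solid line; the dashed line is the median of all genes tested and the grey bands hold their middle 50% and 90%. The 2 replication lists and the mitosis list have medians of 0.10, 0.13 and 0.09, of which the middle one lies just above the middle 50% of all genes and the others inside it, and the bud epithelium list has a median of 0.72.

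Mean ratios of some cell type markers were larger than that of any of the 32 genes. Of 10 markers of bud epithelium, 9 had a mean above 0 and 8 an unadjusted p under 0.05, all 8 above 0, where 3.16% of all genes did. None passed the adjusted test (the smallest adjusted p in limma was that of Elf5, 0.0659). The list had a median of 0.72 and replicate medians of 0.69, 0.59, 0.87 and 0.85. Elf5 had 1.29 ± 0.18 and Krt18 1.14 ± 0.20. The summed processed signal of the 10 markers ran from 38314 to 104610 in labelled mutant RNA and from 23913 to 49262 in labelled wild type RNA. Of 6 bud tip markers 3 were above 0, with a median of 0.02 (Wnt11 0.42, Gfra1 −0.17). Medians were −0.14 for 7 nephron progenitor markers (Gdnf 0.20, Eya1 −0.24), −0.11 for 7 stroma markers (Col1a1 −0.29, Meis1 −0.27), 0.04 for 5 endothelial markers (Tek 0.50, Kdr −0.18) and −0.05 for 5 erythroid markers (Hbb-bh1 −0.20, Alas2 0.10). In limma, 3 of the 7 stroma markers had an unadjusted p under 0.05, all 3 below 0, where 2.6% of all genes did. Wnt11 and Tek were under 0.05 and above 0, and no nephron progenitor or erythroid marker was under 0.05.

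Of 6 macrophage markers tested, 5 were below 0, with a median of −0.29 (C1qa −0.37, Ptprc 0.53), and their summed signal ran from 1959 to 4369 in labelled mutant and from 2215 to 6172 in labelled wild type RNA. All 4 neural markers tested were below 0, with a median of −0.36 (Stmn2 −0.71, Ngfr −0.50), and their summed signal ran from 4426 to 11434 and from 8087 to 15430. At an unadjusted p under 0.05 in limma, 3 macrophage markers were below 0 and 1 above 0, and 2 neural markers were below 0. Of all genes, 2.6% were below 0 and 3.16% above 0 at that threshold. No marker of the cell type lists passed the adjusted test. No tested marker of these lists was at background on every array. Cd68 of the macrophage list and Sox10 of the neural list were not tested. Of the tested markers, 5 of 6 macrophage and 3 of 4 neural ones were well above background in both RNAs on all 8 arrays. The part of cell makeup in the ratios of the replication genes was not tested.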

How the data were processed

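Scanner files of 8 two-colour Agilent arrays were used. Per the file headers, Feature Extraction 10.5.1.1 made for the authors the deposited processed intensities (background-subtracted and dye-normalized) and the deposited log10 ratio of Cy5 over Cy3. The authors' deposited table of selected entries holds log2 ratios, with no direction stated, and was used only to compare signs. The median spot intensities are as deposited, without normalization, per the file headers.

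The log10 ratios were turned to log2 of labelled mutant over labelled wild type, as the dyes in the labels give it. Outlier spots and ratios left unset by the scanner software were dropped, spots of a probe were averaged, then the 2 dye orientations of a replicate. The 2 arrays of a replicate hold the same pair of RNAs per the labels, which is where the pairing comes from, and their ratios correlated over all genes at 0.224 to 0.609. Arrays of different replicates in 1 orientation correlated at −0.243 to 0.581, with replicates 3 and 4 at 0.478 and 0.581, so the correlations alone do not show the pairing. Probes were kept where either RNA gave a spot well above background on 4 or more of the 8 arrays (39520 of 41174), and the brightest stood for its gene. Names came from RefSeq accessions in the table of GRCm38.p6 (25097 probes); the array design cites another build, and the promoter coordinates are those of GRCm38.p6.

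Ratios of the 31013 genes with at least 3 replicates were tested against 0 with lmFit and eBayes of limma 3.58.1 in R 4.3.3, two-sided, with Benjamini-Hochberg adjustment at 0.05. The script was tested on simulated data. All replicate values are given for genes past the threshold, for those at an unadjusted p under 0.05 and for the highest and lowest mean of each role group. Of other replication and mitosis genes, those at an unadjusted p under 0.05 are named, with some others chosen after their values were seen. Of cell type lists, the 2 of smallest p are named by their means. A few more are printed in full, chosen after their values were seen. The genes and lists were chosen with earlier results of these data known. Alternatives were normexp (offset 50) with loess, median centring, 2 signal filters, the mean of probes, a replicate block, array weights, slide, dye orientation and leaving out each replicate.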

Additional observations from a re-analysis of the deposited data

Results flagged for a closer look

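Tyms had 1 replicate apart from the others: replicate 1 was at a log2 ratio of 0.065 and the other 3 lay between 0.138 and 0.142. All 4 were above 0. This was 1 of 32 genes examined in this way, and chance alone marks about 1 gene in 20.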

How the results depend on the processing

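No alternative with a test brought any of the 32 genes past the adjusted threshold. Their median stayed between 0.06 and 0.14, and 24 to 27 of them were above 0. The genes at an unadjusted p under 0.05 were 4 with normexp and loess (Cdc6, Pola1, Rfc5 and Rrm1), 3 with the replicate block (Cdc45, Pola1 and Ccne2), 3 with array weights (Mcm6, Cdc45 and Pola1), 0 on the Cy5 orientation alone and 7 on the Cy3 orientation alone (Mcm6, Mcm10, Cdc45, Pola1, Rfc2, Rfc5 and Rpa1). Leaving out 1 replicate gave 0 (without replicate 1 or replicate 3) to 2 (without replicate 4). Over all genes, 3 passed the adjusted threshold in limma, against 0 with normexp and loess, 11 with the strict signal filter, 5 with the mean of all probes, 106 with the replicate block, 178 with array weights, 1 with the slide as a block, 1 on the Cy5 and 22 on the Cy3 orientation alone, and from 0 to 16 (without replicate 2) leaving out 1 replicate. The member counts at an unadjusted p under 0.05 stand beside the following counts over all genes. There were 1786 of 31013 in the main fit, 1849 with normexp and loess, 2308 with the replicate block and 3919 with array weights. The Cy5 orientation alone gave 1874 and the Cy3 orientation alone 4742. Leaving out 1 replicate gave 1868 (without replicate 1), 2460 (without replicate 2), 643 (without replicate 3) and 1259 (without replicate 4).

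Of the 32 genes, 16 kept 1 sign in all 16 alternatives and 16 turned in at least 1. The 2 signal filters, the replicate block and the slide as a block left each of the 32 means as in the main fit. No sign could turn in those alternatives, so they do not add to the 16 genes that kept 1 sign. The log2 ratios that turned follow by alternative. Normexp with loess put Mcm2 at −0.096, Mcm4 at 0.067, Mcm5 at 0.028, Orc1 at −0.049, Cdt1 at 0.022, Gins2 at −0.116, Lig1 at −5.4e-05, Fen1 at 0.057 and Tk1 at −0.035. Centring each array on its median put Mcm2 at −0.028, Gins2 at −0.037 and Lig1 at −6.5e-05. Array weights put Mcm2 at −0.033, Mcm4 at 0.0085, Cdt1 at 0.0028, Gins2 at −0.037, Cdc7 at −0.026 and Lig1 at −0.016. The Cy3 orientation alone put Mcm2 at −0.015, Prim2 at 0.0012 and E2f1 at −0.036. The Cy5 orientation alone put Mcm4 at 0.015, Mcm5 at 0.036, Mcm6 at −0.120, Cdt1 at 0.014, Mcm10 at −0.199, Gins2 at −0.101, Cdc7 at −0.065, Rfc2 at −0.045 and Fen1 at 0.051. The mean of all probes put Cdc7 at −0.186. Slide 1 alone put Mcm2 at −0.012, Mcm5 at 0.0076, Mcm6 at −0.011, Gins2 at −0.084, Fen1 at 0.011 and E2f1 at −0.066, and slide 2 alone put Mcm7 at −0.019, Cdc7 at −0.171 and Lig1 at −0.00099. Leaving out 1 replicate, the genes whose sign turned ranged for Mcm2 from −0.039 to 0.080, Mcm4 from −0.104 to 0.013, Cdt1 from −0.083 to 0.016, Gins2 from −0.072 to 0.143, Cdc7 from −0.040 to 0.158, Lig1 from −0.037 to 0.093, Fen1 from −0.073 to 0.027 and E2f1 from −0.047 to 0.099. The cause was not tested. Each slide alone gives a value without a test. The number of arrays limits the precision.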

Other observations

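Ccne2 and Hdac2 had the same signs replicate by replicate, above 0 in replicates 1 to 3 and below 0 in replicate 4, on both arrays of each replicate. Ccne2 had 0.38, 0.95, 0.62 and −0.35, and Hdac2 0.60, 0.60, 0.74 and −0.61. In their replicate means Mcm7, Cdc45, Pcna, Rfc3, Rfc5 and Rpa1 had these signs too. So did many genes of the other replication and mitosis lists, among them Cdk2, Pole2, Mad2l1, Orc5, Chek1 and Aurkb. The share of all genes with these signs was not counted. The sign pattern of the means was thus not particular to Ccne2 and Hdac2. The likeness was noticed after the values were seen, rests on 4 replicates and was not tested.

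The 3 probes of Cdc7 parted in 1 replicate: on the 2 arrays of replicate 2 they gave −0.09 and 0.53 for the brightest probe, −2.23 and −2.09 for another, and −0.60 and −1.10 for the remaining one. The dye orientations differ in sign for the brightest probe and have the same sign for the other 2. These probes were singled out after their values were seen, and their positions in the transcript were not used here.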
